A study of Mus musculus with 24 samples.

Results

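9 genes that move cholesterol out of the lysosome and out of the cell were followed through brown adipose tissue (BAT) RNA of 24 mice. They were chosen by gene symbol for their known function, namely the lysosomal genes Npc1, Npc2 and Lipa, the efflux carriers Abca1 and Abcg1, the esterifying enzyme Soat1, and Pltp, Apoe and Scarb1, which act on lipoproteins outside the cell or at its surface. Of these 9 genes, 8 have a row among the 12615 genes of the count table, and Pltp was not analysed here. All 8 passed the filter on low counts that left 12485 genes to test.

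The mice formed 4 groups of 6. BATdKO mice carried floxed TBLR1 and TBL1 alleles and Ucp1CreERT2, a Cre recombinase that tamoxifen activates and that is made under the Ucp1 promoter, so that recombination was directed to cells that express Ucp1. Cre- controls carried the same floxed alleles, lacked the recombinase and belonged to the same tamoxifen protocol. All mice were raised at 22°C, and ambient temperature was changed from 3 weeks after the last tamoxifen injection. The warm groups moved straight to 30°C and, by the labels, stayed there 4 days. For the cold groups the labels give 1 day each at 18, 16 and 12°C followed by 6 days at 8°C, where the methods give a shorter stay. The labels describe female mice injected with tamoxifen at an age of 5 years, and the methods give that age in weeks and one figure legend describes males. Temperatures therefore also differ in the time since the last change, which cannot be told apart from temperature here. The library numbers of the 30°C groups also form a separate run from those of the 8°C groups. Whether the runs were prepared apart is not given, and a difference between them cannot be told apart from temperature either. TBL1 and TBLR1 are WD-repeat proteins of the NCoR and SMRT corepressor complexes, which hold nuclear receptors and other factors in a repressed state.

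Cholesterol that enters a cell with lipoproteins is freed from its esters in the lysosome by the acid lipase LIPA. NPC2, a soluble protein of the lysosomal lumen, then hands it to NPC1 in the lysosomal membrane, from which it reaches other membranes. Excess cholesterol is esterified by SOAT1 in the endoplasmic reticulum or leaves the cell through ABCA1 and ABCG1, which load lipid onto apolipoprotein A-I and onto high-density lipoprotein. Abca1 and Abcg1 are textbook targets of the liver X receptors (LXR), nuclear receptors that bind oxysterols and recruit NCoR and SMRT when no ligand is present.

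The promoters of Abca1 and Npc2 are shown because these were the genes whose groups did not overlap between genotypes at 8°C. Both are the 5′ to 3′ sequence upstream of the annotated start in GRCm38.p6, as RefSeq gives it, on the minus strand. The Abca1 stretch is chr4:53159896-53160145. The Npc2 stretch, chr12:84773153-84773362, is shorter and stops 40 bases before the RefSeq start, because another annotation places the start that far upstream. Capitals mark every match to the motifs described next.
Abca1: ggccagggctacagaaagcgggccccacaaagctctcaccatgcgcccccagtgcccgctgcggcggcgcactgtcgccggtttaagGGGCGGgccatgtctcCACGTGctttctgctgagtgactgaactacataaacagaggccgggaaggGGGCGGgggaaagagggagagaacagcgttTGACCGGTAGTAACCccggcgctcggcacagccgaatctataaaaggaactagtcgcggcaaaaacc
Npc2: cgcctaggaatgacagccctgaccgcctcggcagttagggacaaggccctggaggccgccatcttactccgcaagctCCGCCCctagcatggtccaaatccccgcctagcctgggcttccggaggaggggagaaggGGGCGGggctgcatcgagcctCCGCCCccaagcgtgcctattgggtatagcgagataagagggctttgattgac

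Promoter windows of 300 bases, which run from 250 bases before to 50 bases after the start, were found for 6 of the 9 genes (Abca1, Apoe, Lipa, Npc2, Pltp and Soat1), with 3 starts for Apoe and 8 windows in all. Each motif was searched on both strands, and its share among all 32851 promoter windows of the same length is given beside it. The E-box CACGTG, held by 7.15% of all windows, was found only in the Abca1 window, 147 to 142 bases upstream of the start. The longer form TCACGTGA, known as the core of the TFEB site of lysosomal genes, contains the E-box, is held by 0.974% of windows and was not found in those of the 6 genes. For the LXR element, a strict direct repeat GGTCANNNNAGGTCA was held by 0.0213% of windows and by none of these 8. A variant repeat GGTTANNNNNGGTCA opens with GGTTA in place of GGTCA and takes any base in place of the A before the later GGTCA. It does not include the strict one. Held by 0.0487% of all windows, the variant was found in the Abca1 window on the opposite strand, 67 to 53 bases upstream, where the printed strand reads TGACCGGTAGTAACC. Its letters were not shown to be chosen independently of Abca1, so that share does not measure how unusual this match is. The SREBP site CACCCCAC (2.87% of windows) was not found in the 8 windows. The GC box GGGCGG, at 35.7% of all windows the commonest of these motifs, occurred in the windows of Abca1, Lipa, Npc2, Pltp and Soat1 and not in those of Apoe. These matches describe letters in the windows and nothing about binding.

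Depth and composition of the libraries bear on every value below. Total counts ranged from 699703 to 11527643 (median 6644364), and the shallowest library was Cre- 30C replicate 4. Levels are given as CPM, counts scaled to a fixed library size after TMM normalization, and are not compared between genes, since counts from 3′ tags were not divided by length. Both floxed genes had more counts in libraries labelled BATdKO at 8°C. Tbl1xr1, which encodes TBLR1, was at 20.9 ± 2.24 CPM in Cre- and 39.9 ± 4.01 CPM in BATdKO libraries (mean ± SD, n = 6 each), a log2 fold change of 0.93 with an adjusted p of 0.00348 by edgeR's quasi-likelihood test, and Tbl1x rose by 0.39 with an adjusted p of 0.0633. The tags lie near the 3′ end of the transcripts, and the floxed exons are not given in the sources used here, so these levels do not check the deletion. "BATdKO" below means libraries labelled so. Whether genotype labels were exchanged was not tested, and an exchange would turn the sign of every difference between genotypes given here.

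At 30°C replicate 6 of each genotype stood apart from its group (replicates are numbered here in accession order). Tbl1xr1 was at 38.6 CPM in Cre- 30C replicate 6, against 16.5 to 24.6 CPM in the other 5 libraries of that group, and at 17 CPM in BATdKO 30C replicate 6, against 29.8 to 42 CPM in the other 5. The summed share of 12 brown adipocyte genes was 0.466% of counts in that Cre- library, against 0.0899% to 0.285% in the other 5, and 0.151% in that BATdKO library, against 0.261% to 0.458%. In Tbl1xr1 and in this share each of these libraries lay within the range of the other genotype's remaining libraries or beyond it, and whether they were exchanged was not tested. Calls of members and pathway genes that rest on the 30°C groups are also given without both libraries. Both were singled out by their values in these data, so fits without them are not independent evidence of a difference between genotypes at 30°C.

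Transcripts of hepatocytes were abundant in BAT libraries of every group. All 12 genes of a hepatocyte list were counted in all 24 libraries, among them albumin (Alb) at a mean of 10450 CPM and a range of 5686 to 14390 CPM, and the list took 3% to 4.73% of all counts. The 12 brown adipocyte genes took 0.0899% to 0.546%, with Ucp1, the uncoupling protein of brown fat, at 28.9 to 2076 CPM, so defining markers of the labelled tissue were present but made up a smaller share than hepatocyte ones. Macrophage genes (13 of 14 in the table) took 0.0237% to 0.0414%, and the skeletal muscle fibre list reached 0.518% in Cre- 30C replicate 3. In these bulk libraries fewer cells of a type and less RNA per cell cannot be told apart. Apoe, Scarb1, Npc1 and Abca1 are also known to be expressed in liver, and the part of hepatocyte RNA in their counts was not tested except where values are given.

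**Figure D1:**
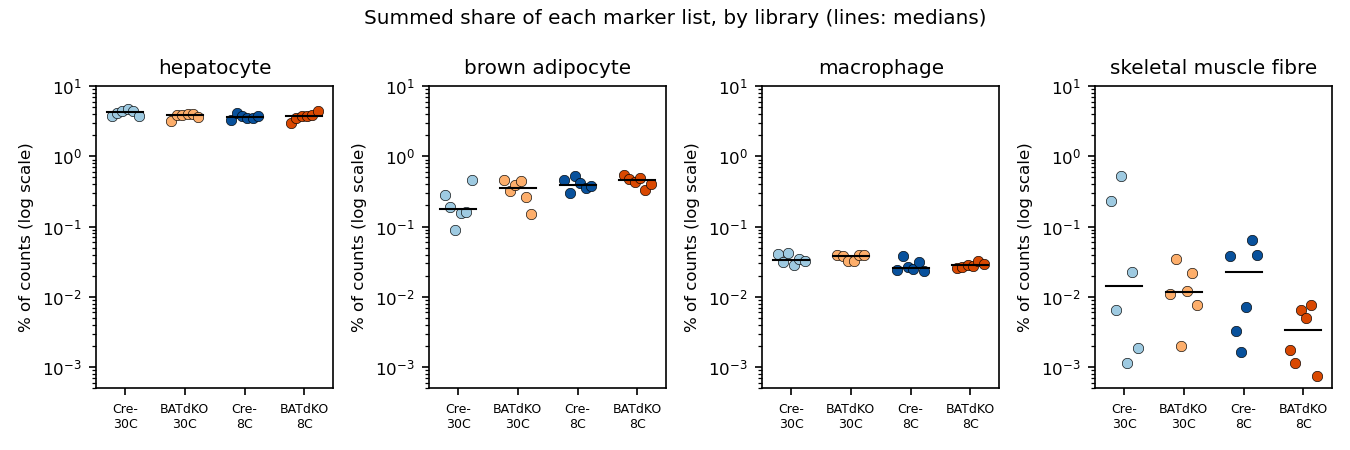
Share of all counts taken by 4 marker lists (vertical axis, percent on a log scale) in each library of the 4 groups (6 points each), with a line at the median of each group. Hepatocyte genes lie between 3% and 4.73% in every library, above the brown adipocyte genes at 0.0899% to 0.546%.

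At 8°C, Abca1 and Npc2 were higher in BATdKO than in Cre- BAT, and no member was lower by the test. This comparison asks whether these genes differ between the labelled genotypes in cold-exposed BAT. Of the 8 genes tested, 2 passed an adjusted p under 0.1, both of them higher, where 1.82% of all genes passed in either direction and 0.697% passed as higher. Log2 fold changes were above 0 for all 8, with a median of 0.23, beside a median of 0 over all genes, of which 50% had values above 0. Abca1, Npc2 and Npc1 were among the genes that the study itself listed from these same samples, so this is not independent evidence of their direction.

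Abca1 encodes the carrier that exports cholesterol and phospholipid to lipid-poor apolipoproteins (GRCm38 chr4:53030787-53159895, minus strand). At 8°C the 6 Cre- libraries had 36.6, 38.1, 39.1, 42.7, 35.3 and 34.7 CPM, and the 6 BATdKO libraries had 53.2, 49.1, 52.8, 50, 49.5 and 57.7 CPM. Every BATdKO library lay above every Cre- library. Abca1 rose 1.37-fold in BATdKO, a log2 fold change of 0.46 (SE 0.094, adjusted p = 0.00761), and an exact permutation test of log2 CPM gave a two-sided p of 0.00216, the smallest that 6 against 6 libraries allow. It passed with each of the 24 libraries left out in turn, with adjusted p from 0.000727 to 0.0299.

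Npc2 (chr12:84754562-84773152, minus strand) encodes the luminal protein that binds cholesterol freed in the lysosome. Its CPM in the 6 Cre- libraries at 8°C were 112, 88.1, 103, 107, 120 and 104, and in the 6 BATdKO libraries 148, 140, 144, 136, 164 and 133. Again the groups were apart, the lowest BATdKO library lying above the highest Cre- library, as was so for 1.95% of all genes. Npc2 rose 1.36-fold, a log2 fold change of 0.45 (SE 0.12, adjusted p = 0.0572), with an exact two-sided permutation p of 0.00216. Its call was lost without Cre- 8C replicate 2 (adjusted p = 0.118), 3 (0.113), 4 (0.104) or 6 (0.105), or without BATdKO 8C replicate 5 (0.145), while the log2 fold change stayed between 0.40 and 0.49 with any library left out. Npc1, its partner in the membrane, did not pass at 8°C.

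Npc1 (chr18:12189692-12236400, minus strand) had a median of 40.5 CPM in Cre- libraries at 8°C (36.8 to 43.8) and of 44.8 CPM in BATdKO libraries (38.5 to 52). The ranges overlapped, with 5 of the 6 BATdKO libraries above all Cre- libraries. The log2 fold change was 0.19 (95% interval 0.015 to 0.36), with an unadjusted p of 0.034 and an adjusted p of 0.464. Exons of Npc1 overlap Rmc1 and Gm15956 on the other strand, and whether reads were counted by strand is not given in the sources used here, so its counts may hold reads of these genes.

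Scarb1 (chr5:125277087-125341094, minus strand) encodes SR-BI, the receptor that takes cholesteryl ester from high-density lipoprotein and also lets free cholesterol pass. At 8°C its median was 52.7 CPM in Cre- (43.4 to 55.9) and 57.3 CPM in BATdKO libraries (54.1 to 61.9). These ranges overlapped as well, and the log2 fold change of 0.17 (95% interval 0.003 to 0.34) had an adjusted p of 0.529. Together with Abca1 and Npc2, Npc1 and Scarb1 made 4 of 8 members with an unadjusted p under 0.05, where 9.24% of all genes had one.

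Lipa (chr19:34492318-34527474, minus strand) had 132 ± 7.47 CPM in Cre- and 139 ± 8.46 CPM in BATdKO libraries at 8°C (mean ± SD, n = 6 each), a log2 fold change of 0.075 whose 95% interval ran from -0.087 to 0.24. Apoe (chr7:19696109-19699188, minus strand), the apolipoprotein that carries lipid to receptors of the low-density lipoprotein family, had 13230 ± 857.8 CPM in Cre- and 14320 ± 1154 CPM in BATdKO libraries. Its log2 fold change of 0.11 had a 95% interval from -0.072 to 0.30. Neither gene passed the test, and both intervals include 0.

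Abcg1 and Soat1 were counted too thinly to show a difference of the size seen for Abca1. Abcg1 (chr17:31057675-31117988, plus strand), the carrier to mature high-density lipoprotein, had 1 to 35 counts per library over all groups, and 0.871 to 3.09 CPM in BATdKO against 1.01 to 2.49 CPM in Cre- libraries at 8°C. Its log2 fold change of 0.45 had a 95% interval from -0.19 to 1.09. Soat1 (chr1:156424525-156474331, minus strand) had 0 to 52 counts per library, and 2.92 to 5.23 CPM in BATdKO against 2.51 to 4.98 CPM in Cre- libraries at 8°C, a log2 fold change of 0.28 with a 95% interval from -0.18 to 0.74. The fold seen for Abca1 lay inside both intervals.

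**Figure D2:**
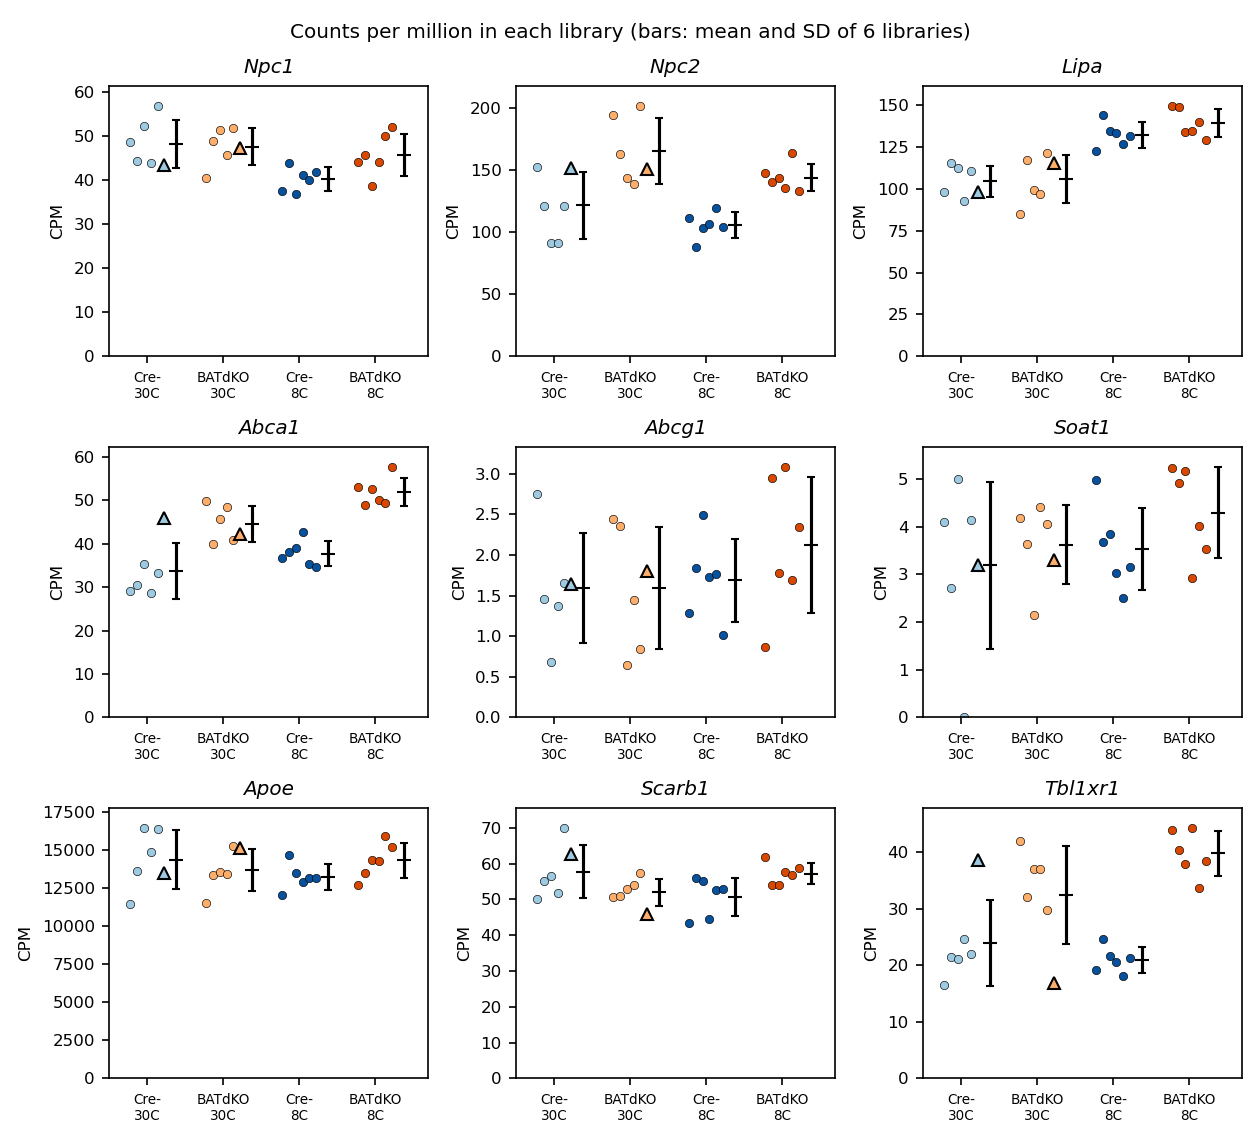
Level of each of the 8 genes and of Tbl1xr1 (vertical axis, CPM) in every library of the 4 groups, with the mean and SD of 6 libraries beside the points. Triangles mark replicate 6 of both groups at 30°C. For Abca1 and Npc2 at 8°C all 6 BATdKO libraries lie above all 6 Cre- libraries, and for Lipa the libraries at 8°C lie above those at 30°C in both genotypes.

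Marker lists were set beside the difference between genotypes at 8°C, and some of them moved with it. The Schwann cell share (3 of 6 genes in the table) ranged from 0.00443% to 0.00738% of counts in Cre- and from 0.00198% to 0.00276% in BATdKO libraries, without overlap, and S100b and Pmp22 fell by 1.77 and 0.62 on the log2 scale (adjusted p = 0.00109 and 0.0196). The B and T cell share (2 of 9 genes) ranged from 0.0018% to 0.00235% and from 0.00271% to 0.00421%, also without overlap, and Ighm rose by a log2 of 1.46 (adjusted p = 5.07e-06). Skeletal muscle genes had log2 fold changes below 0 for 10 of 10 (median -2.94), where 7 had an unadjusted p under 0.05 and none was called, and progenitor and fibroblast genes for 8 of 10 (median -0.30, none called). Among 12 brown adipocyte genes Adrb3, the β3-adrenergic receptor, fell by 0.98 on the log2 scale (adjusted p = 0.0592) and no other was called. The part of these cell types in the values of Abca1 and Npc2 was not tested.

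For the other lists the shares of the groups overlapped. Skeletal muscle genes took 0.00165% to 0.0636% of counts in Cre- and 0.000738% to 0.00776% in BATdKO libraries. Progenitor and fibroblast genes took 0.0169% to 0.0275% and 0.0142% to 0.0177%. Endothelial genes took 0.0229% to 0.0295% and 0.0221% to 0.026%, with log2 fold changes below 0 for 7 of 9 (median -0.105, none called). The brown adipocyte share ranged from 0.298% to 0.522% in Cre- and from 0.328% to 0.546% in BATdKO libraries, and the macrophage share from 0.0237% to 0.0376% and from 0.0255% to 0.0322%. Hepatocyte genes took 3.24% to 4.19% and 3% to 4.35%. Log2 fold changes were above 0 for 12 of 12 hepatocyte genes (median 0.089, none with an adjusted p under 0.1, 1 with an unadjusted p under 0.05) and for 11 of 13 macrophage genes (median 0.10, likewise none and 1). Over all genes 50% lay above 0. With the log2 share of hepatocyte, macrophage or brown adipocyte genes as a covariate, the log2 fold change of Abca1 was 0.46, 0.46 and 0.44 and that of Npc2 0.48, 0.44 and 0.42, and both kept an adjusted p under 0.1 in all 3 fits. The Schwann cell, B and T cell, skeletal muscle, progenitor and endothelial lists were not used as covariates, so these fits do not cover them.

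At 30°C no member passed an adjusted p under 0.1 between genotypes, and no gene did by edgeR (0% of 12485, against 90 genes by DESeq2). Of the 8 members 4 had higher and 4 lower values in BATdKO, with a median log2 fold change of -0.012. An unadjusted p under 0.05 was found for 2 members, where 10.4% of all genes had one, and these were again Abca1 and Npc2. No member's groups were apart, as was so for 0.296% of all genes.

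Abca1 at 30°C had 29.1, 30.4, 35.4, 28.7, 33.3 and 45.9 CPM in the 6 Cre- libraries in order of replicate, and 49.9, 39.9, 45.8, 48.4, 40.8 and 42.4 CPM in the 6 BATdKO libraries. Only Cre- replicate 6 reached into the BATdKO range. The log2 fold change was 0.37 (SE 0.095, adjusted p = 0.149, exact two-sided permutation p = 0.0108). Without Cre- 30C replicate 6 it was 0.50, with an adjusted p of 0.00312, and without both replicates 6 it was 0.50 with an adjusted p of 0.00134, over a range of 0.00134 to 0.588 in all alternatives other than single libraries left out. Cre- replicate 6 held the highest Abca1 level of its group, so leaving it out widened the difference.

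Npc2 at 30°C had 153, 121, 91.5, 91.6, 121 and 152 CPM in Cre- and 195, 163, 144, 139, 202 and 151 CPM in BATdKO libraries. Cre- replicates 1 and 6 lay within the BATdKO range and the other 4 below it. The log2 fold change was 0.43 (SE 0.12, adjusted p = 0.163, exact two-sided permutation p = 0.0238). It was 0.51 with an adjusted p of 0.0239 without Cre- replicate 6, and 0.52 with an adjusted p of 0.0183 without both replicates 6, in a range of 0.0183 to 0.588. DESeq2 on all libraries also called both genes at 30°C, with adjusted p of 0.0765 for Abca1 and 0.0781 for Npc2.

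The brown adipocyte share at 30°C had a median of 0.177% in Cre- and 0.36% in BATdKO libraries, with overlapping ranges. With it as a covariate, the log2 fold change at 30°C was 0.29 for Abca1 (adjusted p = 0.102) and 0.31 for Npc2 (0.131). Skeletal muscle genes had log2 fold changes below 0 at 30°C for 10 of 10 (median -3.31), all 10 with an unadjusted p under 0.05 and none called, and progenitor and fibroblast genes for 9 of 10 (median -0.34, 2 with an unadjusted p under 0.05, none called). Their part in these values was not tested. With the hepatocyte share, whose medians were 4.23% and 3.88%, it was 0.36 (0.307) for Abca1 and 0.32 (0.408) for Npc2. The other 6 members had log2 fold changes between -0.16 and 0.009 at 30°C. Among them Scarb1 had a median of 55.9 CPM in Cre- (50.1 to 70) and 51.9 CPM in BATdKO libraries (46 to 57.4), with an adjusted p of 0.507.

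**Figure D3:**
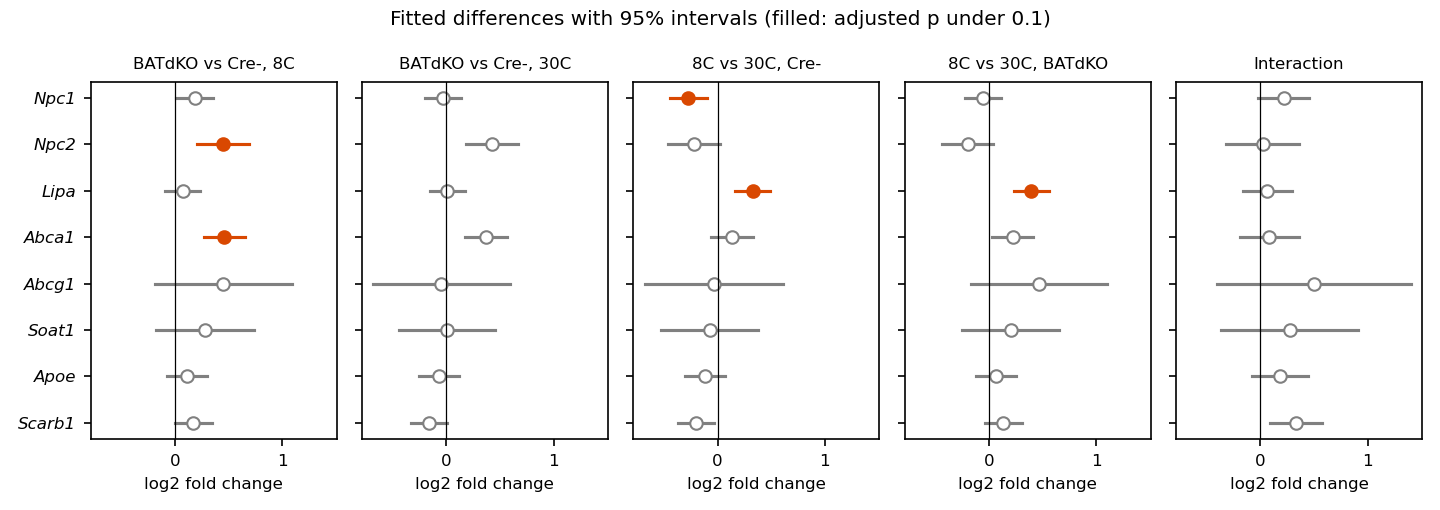
Log2 fold changes of the 8 genes (points) with 95% intervals (lines) from the fit to all 24 libraries, in 5 panels for genotype at 8°C, genotype at 30°C, cold in Cre-, cold in BATdKO and the interaction. Filled points passed an adjusted p under 0.1, namely Abca1 and Npc2 for genotype at 8°C, Lipa in both cold comparisons and Npc1 for cold in Cre- mice.

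Lipa, the acid lipase, was higher at 8°C than at 30°C in both genotypes. Cre- libraries had 98.2, 115, 112, 92.9, 110 and 98.2 CPM at 30°C and 122, 144, 135, 133, 127 and 131 CPM at 8°C. BATdKO libraries had 85.1, 117, 99.4, 96.6, 122 and 115 CPM at 30°C and 149, 149, 134, 135, 140 and 129 CPM at 8°C. In each genotype every cold library lay above every warm one, which was so for 2.93% of all genes in Cre- and 2.99% in BATdKO mice.

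Lipa rose 1.26-fold in Cre- mice (log2 0.33, SE 0.080, adjusted p = 0.0114) and 1.31-fold in BATdKO mice (log2 0.39, SE 0.079, adjusted p = 0.00284), with an exact two-sided permutation p of 0.00216 in each. Both calls held with each of the 24 libraries left out in turn. The difference between these responses was 0.066 on the log2 scale (95% interval -0.17 to 0.30). Without both replicates 6 at 30°C the log2 fold changes were 0.30 and 0.41 (adjusted p = 0.0225 and 0.00292), and with the brown adipocyte share as a covariate they were 0.45 and 0.46. That share itself changed with cold, from a median of 0.177% to 0.396% in Cre- and from 0.36% to 0.454% in BATdKO libraries. In each genotype 6 of its 12 genes, Ucp1 and Elovl3 among them, were called higher with cold, and 1 was called lower. Cold comparisons with this covariate, here and below, therefore cannot tell cell content from the response to cold. Adjusted p over the alternatives other than single libraries ran from 0.00132 to 0.0273 and from 0.000111 to 0.0184.

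Npc1 fell with cold in Cre- mice, from a median of 46.3 CPM (43.3 to 56.7) to 40.5 CPM (36.8 to 43.8). All but 1 of the 6 cold libraries lay below every warm library. Npc1 fell by 0.27 on the log2 scale (SE 0.084, adjusted p = 0.0515). The call was lost without Cre- 30C replicate 3 (adjusted p = 0.121) or 5 (0.149), without Cre- 8C replicate 1 (0.114) or 3 (0.109), with the hepatocyte share as a covariate (log2 -0.17, 0.312), and with the macrophage (-0.18, 0.555) or brown adipocyte share (-0.15, 0.362). The brown adipocyte share itself changed with cold, as given for Lipa. Without both replicates 6 Npc1 fell by 0.31 (adjusted p = 0.0245). Adjusted p over all alternatives other than single libraries ran from 0.0245 to 0.555.

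In BATdKO mice Npc1 had a median of 48 CPM at 30°C (40.4 to 51.7) and 44.8 CPM at 8°C (38.5 to 52), a log2 fold change of -0.054 (95% interval -0.23 to 0.12). The difference between the cold responses of the genotypes was 0.22 (95% interval -0.025 to 0.46, adjusted p = 0.65), so that a difference was not shown. Hepatocyte genes had log2 fold changes below 0 for 11 of 12 with cold in Cre- mice and above 0 for 11 of 12 in BATdKO mice. Over all genes 46% and 49.5% lay above 0. No hepatocyte gene had an adjusted p under 0.1 in either comparison. At an unadjusted p under 0.05 there were 0 and 4 of them.

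The remaining members did not pass in the cold. With Lipa and Npc1 in Cre- mice and Lipa alone in BATdKO mice, 2 and 1 of 8 members were called, where 9.15% and 7.07% of all genes were. An unadjusted p under 0.05 was found for 3 and 2 members, beside 18.6% and 17.2% of all genes. The others were Scarb1 in Cre- mice, with a log2 fold change of -0.20 (adjusted p = 0.175), and Abca1 in BATdKO mice, with 0.22 (adjusted p = 0.197). Scarb1 passed in Cre- mice without Cre- 30C replicate 1 (log2 -0.25, adjusted p = 0.0848).

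Abca1 in Cre- mice had a median of 31.8 CPM at 30°C and 37.4 CPM at 8°C, a log2 fold change of 0.14 (adjusted p = 0.477). It became 0.26 without Cre- 30C replicate 6 (adjusted p = 0.0575) and 0.25 without both replicates 6 (0.0576, in a range of 0.0576 to 0.967), and passed in both. Npc2 had log2 fold changes of -0.22 in Cre- and -0.20 in BATdKO mice (adjusted p = 0.322 and 0.397), the first of which passed with the hepatocyte share (log2 -0.38, 0.0564) or the brown adipocyte share (-0.40, 0.0468) as a covariate, in a range of 0.0468 to 0.756. Apoe, Abcg1 and Soat1 had adjusted p from 0.475 to 0.991 over both cold comparisons.

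No member's genotype effect differed between temperatures by the adjusted test of the interaction, which 0.0961% of all genes passed, and none was called by DESeq2. All 8 estimates were above 0, with a median of 0.20 beside 0.008 over all genes, of which 51% lay above 0. An unadjusted p under 0.05 was found for 1 of them, Scarb1, where 8.05% of all genes had one. For Scarb1 the estimate was 0.33 (95% interval 0.094 to 0.57, adjusted p = 0.433), its log2 fold change between genotypes being -0.16 at 30°C and 0.17 at 8°C. All 12 hepatocyte genes also had interaction estimates above 0, with a median of 0.20, and with the hepatocyte share as a covariate the Scarb1 estimate was 0.29 (adjusted p = 0.786), and without both replicates 6 it was 0.28 (adjusted p = 0.446, in a range of 0.222 to 0.786). For Abca1 and Npc2 the interaction estimates were 0.085 (95% interval -0.19 to 0.36) and 0.022 (-0.32 to 0.36), and without both replicates 6 at 30°C they were -0.046 and -0.076.

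Apoe followed liver-type genes across libraries. Its level lay between 11430 and 16450 CPM over all 24 libraries, and the 8 members together took 1.1% to 1.88% of all counts. The genes most like it over 24 libraries were Mup16, a major urinary protein made in liver (Pearson's r of 0.987 and Spearman's rho of 0.975 in log2 CPM), and Mug1, a liver-made protease inhibitor (0.978 and 0.958). Within groups, after each group's mean was removed, these were 0.992 and 0.99. With the summed hepatocyte share Apoe had a within-group r of 0.767, Npc1 one of 0.496 and Npc2 one of -0.585, and with the brown adipocyte share Apoe had -0.728, Npc2 0.497, Abca1 0.437 and Lipa -0.488. All points share library and depth, so these values are descriptions.

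**Figure D4:**
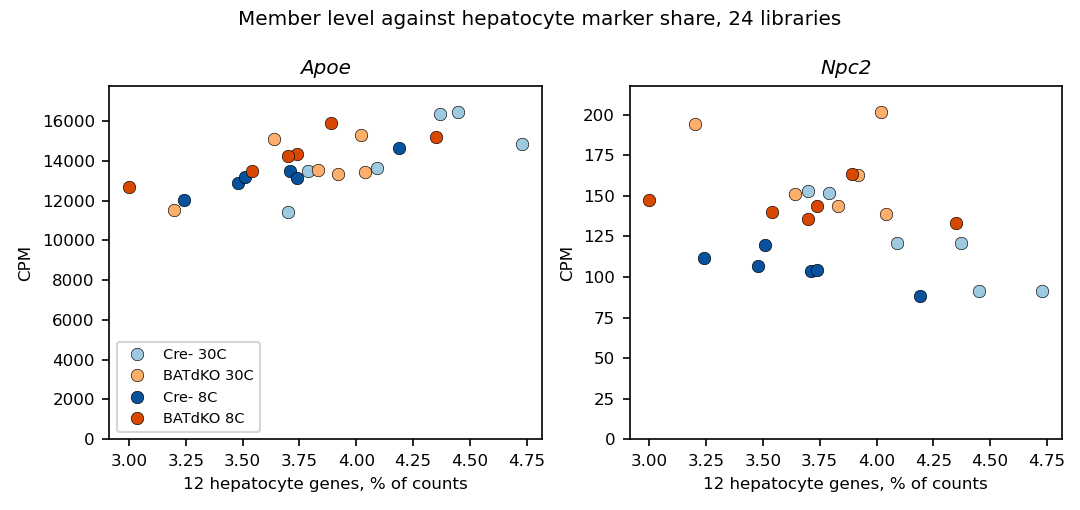
Level of Apoe (left) and Npc2 (right) in CPM against the percent of all counts taken by 12 hepatocyte genes, with 1 point per library and colours for the 4 groups. Apoe is higher in libraries with more hepatocyte counts (within-group r of 0.767), and Npc2 is lower in them (-0.585).

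The other members followed different genes, named by the 2 highest values of r among all tested genes. Over 24 libraries Abca1 was most like Alpl, tissue-nonspecific alkaline phosphatase (r = 0.876), and Acsl1, an acyl-CoA synthetase (0.86). Lipa was most like Elovl3, the fatty acid elongase of brown fat (0.875), and Gpam, the mitochondrial glycerol phosphate acyltransferase (0.849), and Npc2 was most like Zfp703 (0.835) and Ncor1 (0.792), the latter encoding the corepressor NCoR1. Removing group means left 0.593 and 0.634 for Abca1, 0.605 and 0.649 for Lipa, and 0.61 and 0.538 for Npc2. For Npc1 they were Rpsa (0.753) and Gm26789 (0.724), for Scarb1 Gm19950 (0.751) and Gabbr2 (0.679), and for the thinly counted Abcg1 Atxn7l1 (0.777) and Tars2 (0.647). For Soat1 they were BC024978 (0.94) and Dr1 (0.936), values that fell to 0.581 and 0.264 without the 2 libraries farthest from its median, which include the library at 0 counts.

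Other genes of the pathway were counted from fixed lists. Of 17 tested genes of lysosomal sterol export and membrane contact sites, none passed between genotypes at either temperature, and the median log2 fold change at 8°C was 0.045. An unadjusted p under 0.05 was found for 1 at each temperature, beside 9.24% of all genes at 8°C and 10.4% at 30°C. With cold 1 of the 17 passed in each genotype, where 9.15% of all genes did in Cre- and 7.07% in BATdKO mice. These were Osbpl9, an oxysterol-binding protein, which rose in Cre- mice (log2 0.38, adjusted p = 0.0229), and Scarb2, the lysosomal membrane protein LIMP-2, which rose in BATdKO mice (0.41, adjusted p = 0.0121). Of 22 tested other lysosomal enzymes and regulators, again none passed between genotypes, with medians of -0.016 at 8°C and 0.026 at 30°C, and 1 and 0 had an unadjusted p under 0.05.

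In the cold 2 of these 22 passed in each genotype, both higher, a share close to the 9.15% and 7.07% of all genes. The protease Ctsz rose by a log2 of 0.67 in Cre- and 0.75 in BATdKO mice (adjusted p = 0.0459 and 0.0271). Ctsd, cathepsin D, rose in Cre- mice (0.27, adjusted p = 0.0667), and Psap, the precursor of the saposins, rose in BATdKO mice (0.42, adjusted p = 0.0683). The median over the 22 was 0.023 in Cre- and 0.048 in BATdKO mice, beside -0.02 and -0.003 over all genes.

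Of 12 tested LXR receptors and other LXR targets, 1 passed between genotypes at 8°C, where 1.82% of all genes did. Smpdl3a, a phosphodiesterase, fell by 0.62 on the log2 scale (SE 0.18, adjusted p = 0.0901), and the list had 5 values above and 7 below 0, with a median of -0.073. None of the 12 passed at 30°C, in the cold or for the interaction, with 1, 2, 2 and 1 at an unadjusted p under 0.05, beside 10.4%, 18.6%, 17.2% and 8.05% of all genes. Of 14 tested other efflux carriers and acceptors, Abca2, a carrier of the endolysosomal membrane, fell by 0.35 on the log2 scale in BATdKO at 8°C (SE 0.086, adjusted p = 0.038), and no other gene of the list passed in any comparison.

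Uptake genes were called in 3 comparisons, with 1 higher and 1 lower for genotype at 8°C, where 1.82% of all genes passed. With cold 2 of 12 passed in each genotype, where 9.15% of all genes did in Cre- and 7.07% in BATdKO mice. Of 12 lipoprotein uptake genes, Lpl, the lipase that releases fatty acids from circulating lipoproteins, rose by a log2 of 1.01 in BATdKO at 8°C (SE 0.25, adjusted p = 0.0434), and Sorl1, a sorting receptor, fell by 1.40 on the log2 scale (adjusted p = 0.00263). With cold Sorl1 rose by 2.08 in Cre- and 1.79 in BATdKO mice (adjusted p = 6.81e-06 and 0.000373), Cd36, a fatty acid receptor, rose in Cre- mice (0.51, adjusted p = 0.0832), and Lpl rose in BATdKO mice (1.17, adjusted p = 0.00581). Of 6 genes of sterol ester handling, Hilpda, a lipid droplet protein, fell by 0.77 in Cre- and by 0.89 in BATdKO mice on the log2 scale (adjusted p = 0.0407 and 0.0178), and none passed between genotypes. DESeq2 called the same genes of all 6 lists, and in addition Cd36 and Sorl1 of the uptake list between genotypes at 30°C. Without both replicates 6 the call of Psap was lost (log2 0.34, adjusted p = 0.143) and the other calls of these lists were kept. That fit also called Scarb2 between genotypes at 8°C (0.28, adjusted p = 0.0267), Sort1, Cd36, Lpl and Sorl1 between genotypes at 30°C (adjusted p from 0.0147 to 0.0457), and Lamp1 (0.55, 0.0526) and Lpl (0.92, 0.00351) for cold in Cre- mice.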

How the data were processed

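The authors made 3′ tag libraries (QuantSeq FWD) from BAT RNA of 24 mice, used BBDuk for trimming, STAR for alignment of the forward reads to GRCm38 and Rsubread for counting per gene, and the deposited values are raw read counts per gene. The submitters' processing notes also name DESeq2. Annotation release, strand setting and the rule that left out low genes are not given in the sources used here. The paper removed outliers that it does not name, so all 24 libraries were used. Of 12615 identifiers, 12608 matched a symbol in GENCODE vM21.

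The tests were run with edgeR 4.0.16 (R 4.3.3, limma 3.58.1), using TMM, filterByExpr (12485 genes kept, 130 removed), a quasi-likelihood model with 1 mean per group over 24 libraries, and Benjamini-Hochberg adjustment over all genes tested, with a threshold of 0.1. SE is the log2 fold change over the square root of F, and 95% intervals use the t distribution. Log2 CPM used a prior count of 2. Single values were also tested by exact two-sided permutation over 924 assignments of 6 against 6, whose smallest p is 0.00216. Scripts were tested on simulated data. Replicates are numbered in accession order, and p-values measure the spread between these mice.

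The members and lists were chosen with earlier results of these data known. Named are the 9 members, both floxed genes, up to 2 genes of smallest p per pathway list and comparison, and the 2 genes most like each member by r. Alb, Ucp1 and the marker shares are named as descriptions of the tissue. Alternatives were DESeq2 1.42.0, RLE, no filter, a mean count of at least 10, robust dispersion, only the groups compared, leaving out libraries and, chosen after seeing the data, marker shares as covariates. Comparisons of genotype at 8°C and cold in a genotype share libraries.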

Additional observations from a re-analysis of the deposited data

How the results depend on the processing

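No paired analysis was possible because the labels give no replicate numbers, so libraries of different groups share none. The 3 marker shares used as covariates were chosen after seeing the data. The count of members called kept within 1.5 times its value except in these cases. For genotype at 30°C it was 2 with DESeq2 and 2 without both replicates 6, against 0. For cold in Cre- mice it was 1 with the macrophage share as a covariate, against 2. Leaving out single libraries gave 1 to 2 for genotype at 8°C, 0 to 2 for genotype at 30°C and 1 to 3 for cold in Cre- mice. Directions turned only for estimates near 0 or members that did not pass, and the cause was not tested. For genotype at 30°C, Lipa was -0.014 without the library of lowest count, -0.04 without both replicates 6 and -0.005 with the macrophage share, and Soat1 was -0.041, -0.013, -0.04 (hepatocyte share) and -0.002 (macrophage share). Npc1 was 0.039 and 0.05, and Apoe 0.051 and 0.066, with the hepatocyte and brown adipocyte shares. For cold in Cre- mice, Apoe was 0.04 and 0.079 with those shares, and with the macrophage share Abcg1 was 0.212 and Soat1 0.06. For cold in BATdKO mice Npc1 was 0.041 with the macrophage and 0.003 with the brown adipocyte share. Without both replicates 6 the interaction was -0.076 for Npc2 and -0.046 for Abca1. With single libraries left out, ranges that crossed 0 were -0.057 to 0.026 (Npc1), -0.032 to 0.064 (Lipa), -0.209 to 0.254 (Abcg1) and -0.081 to 0.122 (Soat1) for genotype at 30°C, -0.2 to 0.26 (Abcg1) and -0.193 to 0.039 (Soat1) for cold in Cre- mice, and -0.056 to 0.094 (Npc2) and -0.037 to 0.133 (Abca1) for the interaction. Over all genes, single libraries left out gave 138 to 276 calls for genotype at 8°C, 0 to 369 for genotype at 30°C, 791 to 1343 for cold in Cre-, 574 to 1069 for cold in BATdKO mice and 7 to 37 for the interaction. Calls for genotype at 8°C (227) were 477 with only the groups compared and 418 with the brown adipocyte share. For genotype at 30°C (0) they were 90 with DESeq2, 500 without both replicates 6, and 51 and 509 with the macrophage and brown adipocyte shares. For the interaction (12) they were 19 to 84 with the covariates, 51 with DESeq2, 21 with robust dispersion and 44 without both replicates 6. For cold they were 736 (hepatocyte) and 331 (macrophage) against 1143 in Cre- mice, and 304 (macrophage) against 883 in BATdKO mice. Depth limits Abcg1 and Soat1, whose intervals span both directions in every comparison.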

Other observations

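The 8 members did not move as 1 block across the 24 libraries. Of the 28 pairs of members, the highest Pearson's r of log2 CPM was that of Npc1 with Apoe (0.576, and 0.572 once group means were removed). Abca1 and Npc2 had an r of 0.487, which was 0.102 once group means were removed, and Npc1 and Npc2 had 0.241 and -0.167. Lipa and Npc1 had -0.171 over all libraries and 0.447 within groups. All pairs share libraries and depth, and these values are descriptions.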
